A study of Mus musculus with 22 samples.

Results

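Open chromatin was compared between bone marrow-derived macrophages given lipopolysaccharide (LPS) together with lactic acid (LA) and macrophages given LPS alone. The comparison was defined by the treatment labels and takes 6 of the 22 samples of the study, 3 with LPS+LA and 3 with LPS. Marrow of C57/BL6 mice was cultured with L929 supernatant, a source of macrophage growth factor, over 7 days. LPS was given at 100 ng/ml and L-(+)-lactic acid at 10 mM for 3 h, and each sample held 50000 cells. Read beside them were 3 untreated control samples, 3 samples with LA alone, whose dose the labels do not give, and RNA counts from 2 libraries for each of the same treatments. A further RNA group of 2 libraries, LPS with the medium acidified by HCl (LPS+HCl), entered the RNA fit and is not described here. The labels do not say whether replicates came from separate cultures or mice, so every spread and p-value given here covers these samples only and may be technical.

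In ATAC-seq a transposase inserts adapters where DNA is not covered by nucleosomes, and a peak is a stretch where insertions pile up above the local background. LPS is sensed by Toll-like receptor 4, which activates NF-kB, AP-1 and, through secreted interferon, STAT factors. These act on enhancers and promoters that the macrophage factors PU.1 and C/EBP keep accessible, and some enhancers become accessible only after the stimulus. Lactic acid lowers the pH, enters cells through monocarboxylate transporters and is known to dampen cytokine production by LPS-treated macrophages.

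The 3 LPS samples had 100667, 94412 and 88807 called peaks, and the 3 LPS+LA samples had 85571, 99435 and 99416. The groups overlapped, with means of 94629 ± 5933 and 94807 ± 7999 (SD, n = 3), and the difference of 179 peaks was far inside the spread (two-sided exact permutation p = 1, where 3 against 3 samples cannot give less than 0.1). Peaks covered 43.1 ± 6.14 Mb with LPS and 40.1 ± 5.99 Mb with LPS+LA (exact permutation p = 0.7, n = 3). Control samples had 84496 ± 3560 peaks and LA samples 78813 ± 2073 (SD, n = 3). The number of reads behind each list is not known, so a longer list can come from a deeper library. LPS+LA replicate 1 and LPS replicate 3 had the shortest lists and the narrowest median peak widths of their groups.

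**Figure D1:**
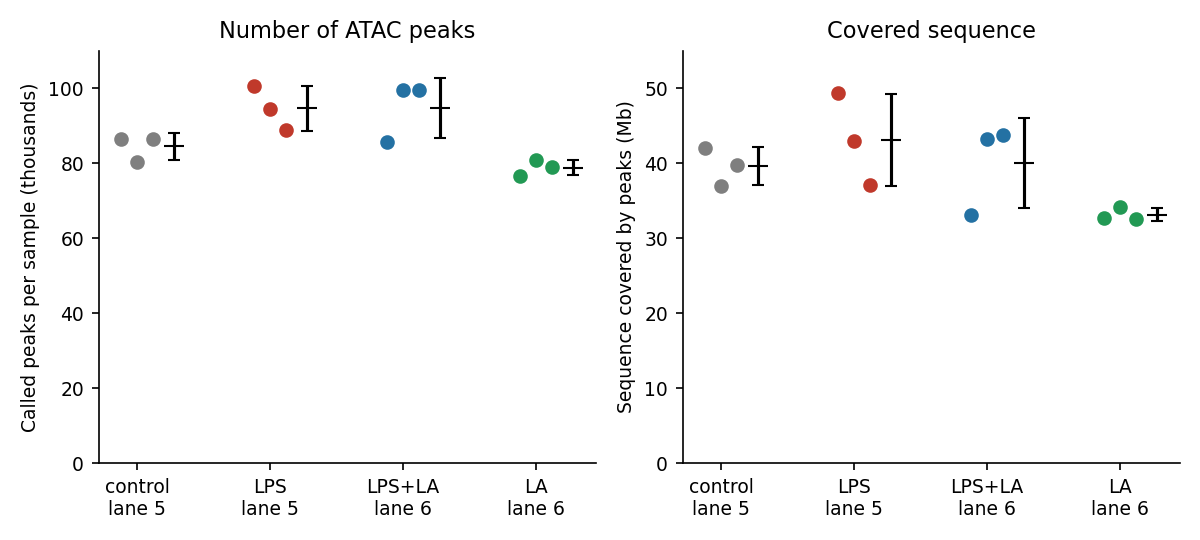
Number of called ATAC peaks (left) and sequence covered by them (right, Mb) in each sample of the 4 groups. Points are samples, the bar to their right is the mean with the SD (n = 3), and the sequencing lane is under each group. LPS and LPS+LA overlap in both panels, and LPS+LA replicate 1 lies below the other LPS+LA samples.

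The file headers name lane 5 of a flow cell for LPS and control and lane 6 for LPS+LA and LA, so lane and lactic acid cannot be told apart in this contrast. Peaks at marker genes were those of macrophages: of 13 macrophage identity genes with a sequence window at their start, 11 had a peak there in each of the 6 samples, while none of 5 T cell, 3 B cell, 3 fibroblast and 4 erythroid marker genes did. Among markers of other cells, 2 of 8 neutrophil genes, 2 of 5 neuron genes and 1 of 5 mast cell genes did, and the summed RNA of each of these lists was at most 3.37 CPM (counts scaled by library total times its TMM factor, the scale of all CPM given here) in any LPS or LPS+LA library. Macrophage markers summed to 18951 to 19053 CPM with LPS and 18092 to 18655 with LPS+LA, and scaled by library totals alone to 14455 to 14467 and 18111 to 18847, so that the order of the groups turns with the scaling. Fibroblast markers summed to 10.6 to 11.3 CPM with LPS and 0.527 to 0.589 with LPS+LA, and the part of this in the results was not tested.

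Peaks of all 12 ATAC samples that overlapped by at least 1 bp were merged into 127890 sites, of which 119031 had a peak in at least 1 of the 6 samples. Most were shared: 69042 sites (58.0%) had a peak in all 6 samples. Any pair of LPS samples shared 80.8 to 84.2% of their sites, any pair of LPS+LA samples 79.6 to 85.3%, and a pair with 1 sample of each group 71.9 to 76.7%, so all 9 pairs between the groups shared less than every pair within them. A site was called LPS-only where all 3 LPS samples and no LPS+LA sample had a peak, and LPS+LA-only in the reverse case. There were 2932 LPS-only sites (2.46% of the 119031) and 2869 LPS+LA-only sites (2.41%), together 4.87%. Sites with a peak in a single sample were more numerous, 7410 in 1 LPS sample and 6904 in 1 LPS+LA sample. No read counts at the sites were used here, so a site without a peak may hold reads below the caller's threshold. Dropping LPS replicate 3 raised the LPS-only count to 5030, and dropping LPS+LA replicate 1 raised the LPS+LA-only count to 5492, each with 1 sample fewer to meet.

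**Figure D2:**
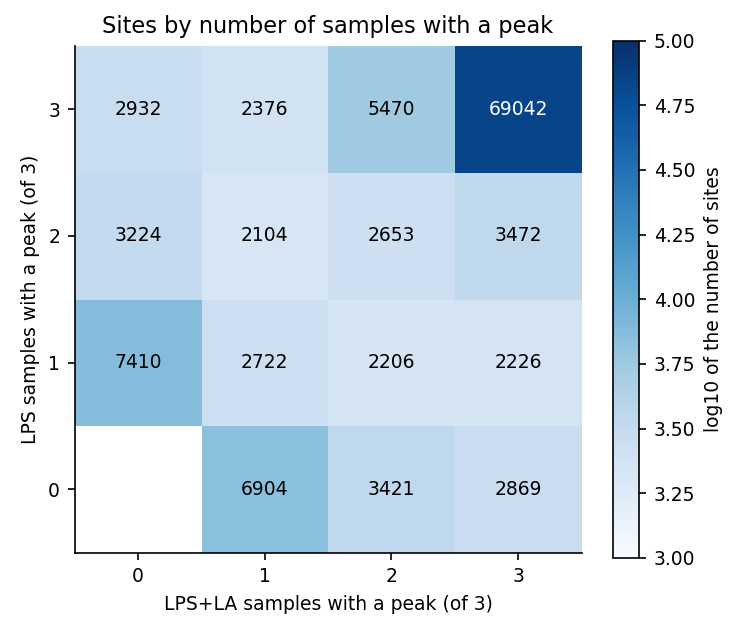
Number of merged sites by how many LPS samples (vertical) and LPS+LA samples (horizontal) had a peak, with shading on a log10 scale. The upper right cell holds the 69042 sites of all 6 samples, the upper left the 2932 LPS-only and the lower right the 2869 LPS+LA-only sites.

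One-group sites lay away from gene starts and were weak within their lists. Of LPS-only sites 4.36% and of LPS+LA-only sites 4.43% were within 1 kb of an annotated start, against 17.1% of sites in all 6 samples and 11.9% of all 119031. Their median widths were 349 and 312 bp, against 566 bp for sites in all 6. Ranked by the deposited score, which is the authors' own value per peak, they stood at a median of 76.9% and 75.2% of the way down the list, where sites in all 6 stood at 36.9%. About as many lay within gene bounds (64.5% and 66.9%) as over all sites (69.3%). Few were strong: 96 LPS-only and 144 LPS+LA-only sites had a peak among the top 50000 of each sample of their own group and no peak of any score in the other group, a rule added after the data were seen.

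Control and LA samples were read at the same sites. Of the 2932 LPS-only sites, 2083 (71.0%) had no peak in any control sample, 444 (15.1%) had one in all 3, and 2530 (86.3%) had none in any LA sample. Over all 119031 sites, 28.7% had no control peak and 30.4% no LA peak. These include the 69042 sites in all 6 samples, which stood higher in their lists. Control and LA lists were also shorter on average. The part of peak strength and list length in these shares was not tested. In all, 2064 of the LPS-only sites had a peak in LPS samples and in no sample of the other 3 groups. The 2869 LPS+LA-only sites split differently: 2264 (78.9%) had no control peak, while 1471 (51.3%) had no peak in any LA sample and 617 (21.5%) had one in all 3. Among the strong sites 83 of 96 strong LPS-only sites had no control peak and 91 had no LA peak, and 83 of 144 strong LPS+LA-only sites had a peak in all 3 LA samples. Among the 617 LPS+LA-only sites with a peak in all 3 LA samples, 196 also had one in all 3 controls, so that only the LPS samples lacked them. Control shared the lane of LPS, and LA that of LPS+LA. So 71.0% of LPS-only sites were without a peak in the 3 other samples of their lane, and 51.3% of LPS+LA-only sites likewise. With only the top 50000 peaks of each sample these shares were 64.3% and 32.0%. With peaks at or above the median score of their own sample they were 72% and 51.6%. Why the shares differ between these settings was not tested.

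**Figure D3:**
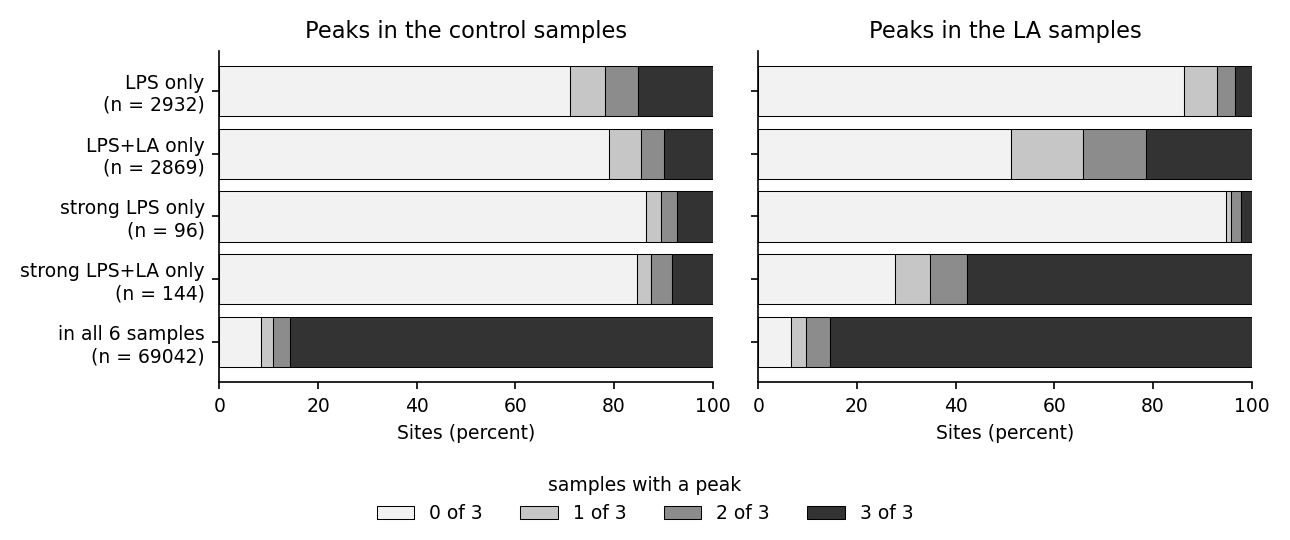
Percent of sites in each set with a peak in 0, 1, 2 or 3 control samples (left) and LA samples (right). Bars sum to 100 and the number of sites stands beside each set. LPS-only sites are mostly without peaks in both groups, and 21.5% of LPS+LA-only and 57.6% of strong LPS+LA-only sites have a peak in all 3 LA samples.

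The genes beside these sites were read against RNA from the same treatments. Of 12213 genes tested, edgeR called 3569 (29.2%) higher and 3622 (29.7%) lower in LPS+LA than in LPS, with 2 libraries a group. Scaling to total counts instead of TMM moved the median log2 difference of all genes up by 0.40 and gave 6208 higher and 2032 lower, so RNA directions here are relative to the bulk of genes. Less RNA per cell and fewer cells of a kind cannot be told apart in such bulk libraries. Of the 12165 tested genes with a position, 3321 (27.3%) had an LPS-only site and 3325 (27.3%) an LPS+LA-only site within 50 kb of their bounds. Genes beside LPS-only sites were lower in LPS+LA in 37.7% and higher in 26.7% of cases, where all 12165 gave 29.7% and 29.3%. Genes beside LPS+LA-only sites gave 32.5% lower and 31.3% higher. Of these, 1074 were also beside LPS-only sites and gave 39.1% lower and 27.7% higher. The 2251 with LPS+LA-only sites alone gave 29.3% lower and 33.1% higher. The 2247 with LPS-only sites alone gave 37.1% lower and 26.3% higher. With total-count scaling the shares beside LPS-only sites were 24.5% lower and 46.3% higher, against 16.7% and 50.9% over all genes.

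The shares shifted with the number of LPS-only sites. With 1, 2 and at least 3 of them within 50 kb, 34.6%, 47.3% and 58.4% of genes were lower, and 28.8%, 20.9% and 11.4% were higher. The last class held 149 genes, with a median log2 difference of -0.55 where all genes had 0.03. For LPS+LA-only sites the shares of higher RNA were 30.5%, 35.2% and 30.7%, and of lower RNA 31.0%, 37.1% and 39.2%. Genes with more sites were longer, with a median of 87.5 kb for at least 3 LPS-only sites and 81.7 kb for at least 3 LPS+LA-only sites against 23.2 kb over all, and the part of length was not tested.

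**Figure D4:**
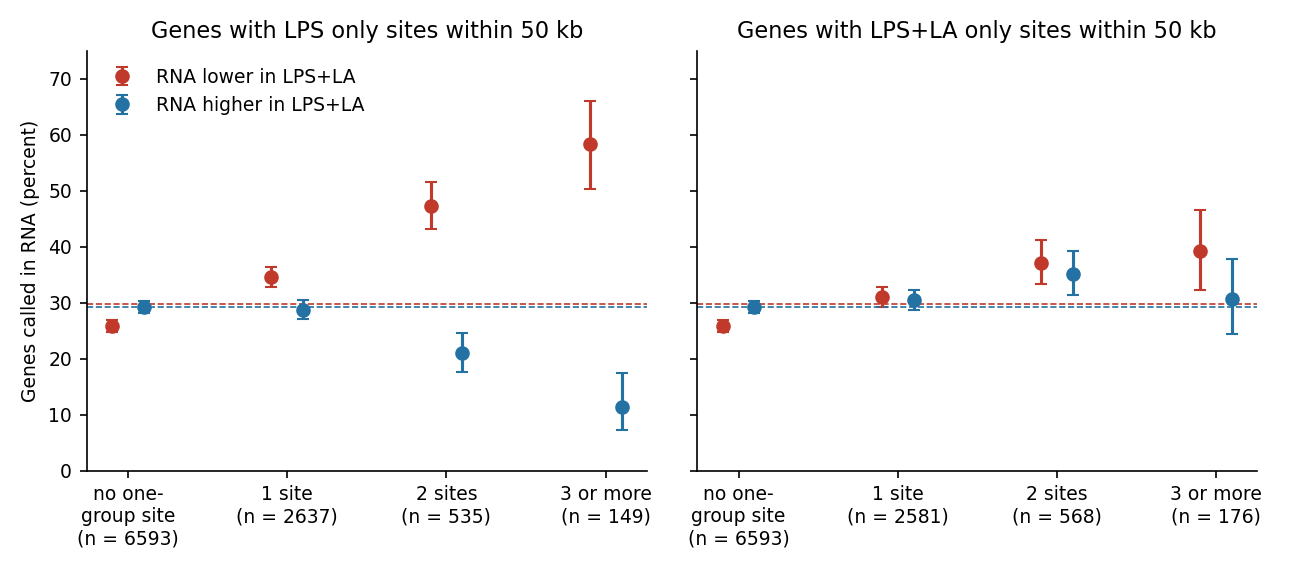
Percent of genes called lower (red) or higher (blue) in RNA of LPS+LA than of LPS, by the number of LPS-only (left) or LPS+LA-only (right) sites within 50 kb. Whiskers are 95% Wilson intervals that cover counting over genes only, and dashed lines are the shares over all 12165 genes. The first class is genes with neither kind of site (25.8% lower, 29.3% higher). Red and blue whiskers lie apart at 1, 2 and 3 or more LPS-only sites and overlap at 1, 2 and 3 or more LPS+LA-only sites. These classes include genes that also have sites of the other kind.

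Slco3a1, a transporter of organic anions and prostaglandins, had the most LPS-only sites of any tested gene. All 7 lay inside the gene, none had a peak in any control or LA sample, and 18 further sites there had peaks in all 6 samples. The highest by score was at chr7:74449772-74450181 (mm10), with 26.5, 23.8 and 20.1 in the 3 LPS samples. Slco3a1 RNA was 172 and 175 CPM with LPS and 6.58 and 6.37 with LPS+LA, and 5.82 and 6.09 in controls. The LPS libraries stood far above those of control, LPS+LA and LA (3.65 and 4.96), with a log2 difference of -4.74 (SE 0.12, edgeR adjusted p = 2.77e-19).

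Il18, the interleukin matured by inflammasomes, had 4 LPS-only and no LPS+LA-only site. A pair lay 7.88 and 10.9 kb before the lower gene bound and another pair 2.89 and 3.78 kb past the upper one, all without control or LA peaks, while its start window had a peak in all 6 samples. Its RNA was 72.2 and 71.5 CPM with LPS and 12.4 and 14.96 with LPS+LA (log2 -2.39, SE 0.12), with controls at 8.21 and 8.58. Alcam, an adhesion molecule, had 5 LPS-only sites inside the gene, 4 of them with no control or LA peak. Alcam RNA was 574 and 604 CPM with LPS and 244 and 233 with LPS+LA (log2 -1.30, SE 0.07). Myo1d, a class I myosin, had 6, and its RNA was lower by a smaller amount (log2 -0.51, SE 0.13). With total-count scaling the Myo1d difference was -0.11 (edgeR adjusted p = 0.466) and did not pass the test.

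Midn, a nuclear protein that takes immediate early proteins to the proteasome, had 5 LPS+LA-only sites within 50 kb and the largest RNA difference of the 6 genes named here with 5 or more, and 1 LPS-only site 3.42 kb past the gene. Both sites at 6.88 and 17.8 kb past its lower bound also had peaks in all 3 LA samples and in no control. The strongest, at chr10:80101036-80101412 (mm10) with scores of 39.8, 50.5 and 33.7, lay 44.6 kb away over an alternative start of Sbno2 and had no LA peak. Midn RNA was 32.5 and 36.6 CPM with LPS, 168 and 181 with LPS+LA, 126 and 135 in controls and 291 and 253 with LA. The LPS libraries were the lowest of these 4 groups, and LPS+LA was higher by a log2 of 2.34 (SE 0.10, edgeR adjusted p = 8.9e-16).

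Mertk, the receptor kinase by which macrophages take up apoptotic cells, had 5 LPS+LA-only and no LPS-only site, 4 of them inside the gene. Several states occurred among them in the other groups, from no control or LA peak to peaks in all 3 samples of both. Mertk RNA was 32.9 and 38.6 CPM with LPS and 38.1 and 43.7 with LPS+LA, ranges that overlap (log2 0.19, SE 0.10, edgeR adjusted p = 0.109), and it passed the test with total-count scaling (0.60), without LPS replicate 2 (0.32) and without LPS+LA replicate 1 (0.30). A further 4 genes had 6 LPS+LA-only sites each and little or no RNA change. Cux1, a homeodomain factor, differed by a log2 of 0.12 (SE 0.07) and Mnat1, which assembles the CDK-activating kinase, by 0.07 (SE 0.16), and neither passed the test with TMM, while both did with total-count scaling (0.52 and 0.47). The zinc finger protein Hivep3 had 326 and 329 CPM with LPS and 290 and 288 with LPS+LA, a difference of -0.18 (SE 0.07) that turned to 0.22 with total-count scaling and failed the test when any 1 of the 4 libraries was left out. The cadherin Fat3 had 3 LPS-only sites as well and a difference of -0.48 (SE 0.10), which was -0.08 with total-count scaling and then did not pass (edgeR adjusted p = 0.525).

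**Figure D5:**
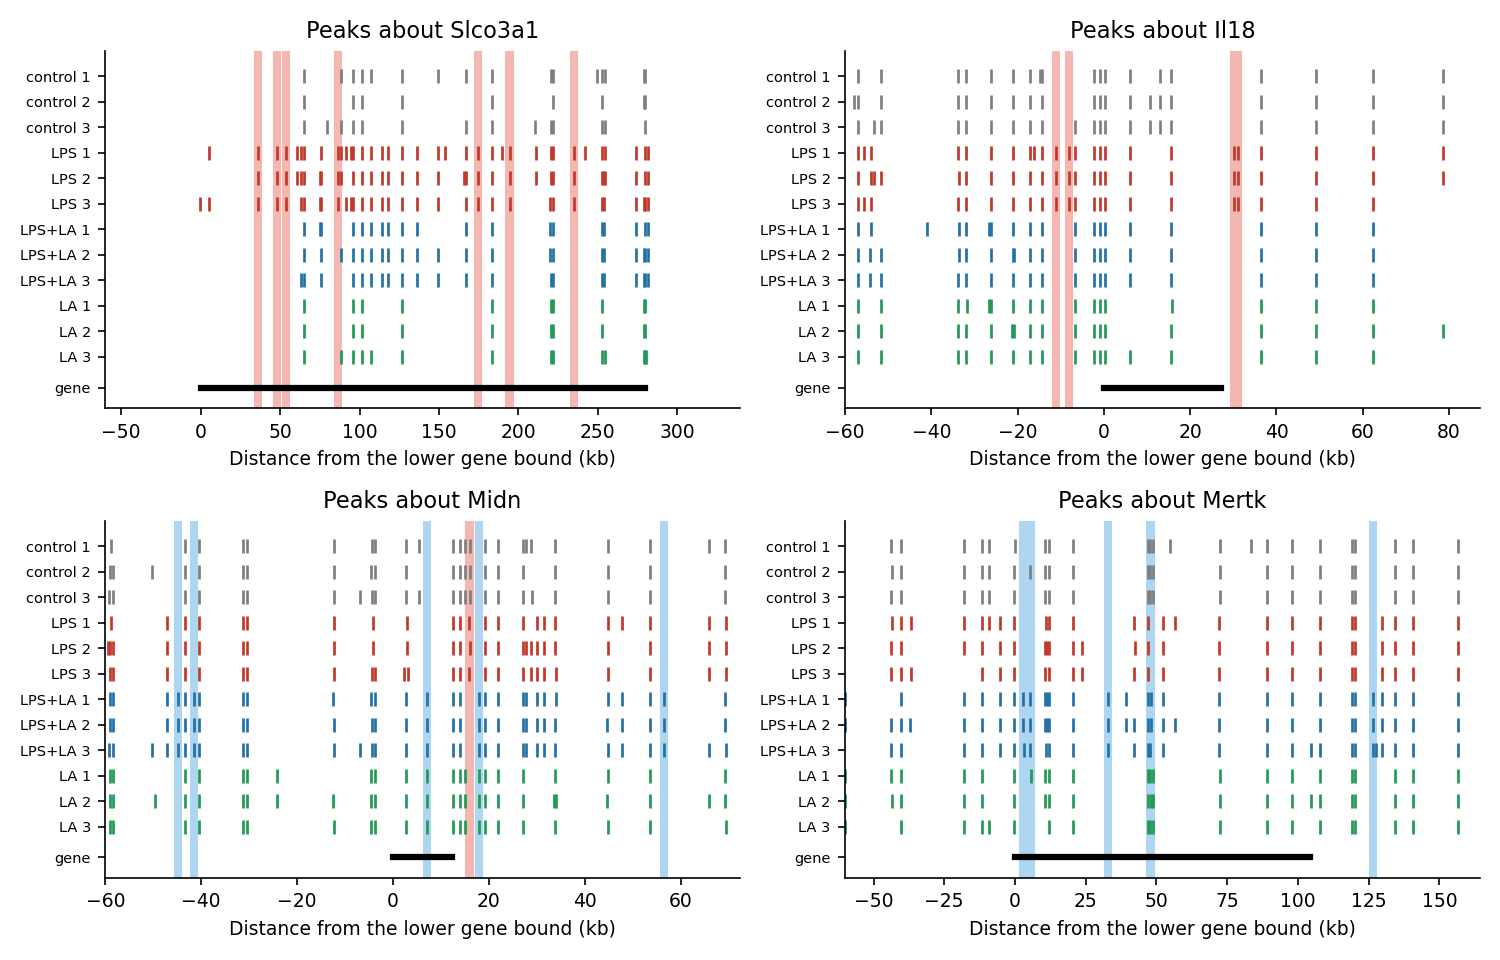
Peaks in each of the 12 samples about 4 genes, by distance from the gene bound with the lower coordinate (kb). Each tick marks the midpoint of a peak and is not drawn to its width, the black bar is the gene, and shading marks LPS-only (red) and LPS+LA-only (blue) sites and is wider than the sites. At Slco3a1 and Il18 the shaded columns hold ticks in the LPS samples, and at Midn and Mertk the blue ones hold ticks in the LPS+LA samples and, in part, in LA or control samples.

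Strong LPS-only sites lay beside several genes with much lower RNA in LPS+LA. Of the 129 genes within 50 kb of such a site, 55.8% were lower and 17.8% higher, against 29.7% and 29.3% over all 12165. Il12a and Col27a1 were chosen after the values were seen. Edn1, the vasoconstrictor endothelin-1, had one at chr13:42291990-42292474 with scores of 48.7, 47.4 and 49.4 in the LPS samples and no peak in any of the other 9. Its RNA was 270.3 and 249.1 CPM with LPS and 0.535 and 1.00 with LPS+LA (log2 -8.39, SE 0.17, edgeR adjusted p = 7.27e-21), and its own start window had a peak in all 6 samples. Serpina3g, a serine protease inhibitor, had 4 LPS-only sites without control or LA peaks, 1 of them strong. Serpina3g RNA was 140 and 157 CPM with LPS and 0.375 and 1.05 with LPS+LA. Il12a, the p35 subunit of interleukin 12, had 4.28 and 4.10 CPM with LPS and no count in either LPS+LA library, at least 26.3-fold lower against 3 counts per library, and the strong site 47.3 kb from it also had peaks in all 3 control and 2 LA samples. Col27a1, a fibrillar collagen gene, fell from 36.6 and 32.0 to 0.749 and 0.421 CPM (log2 -5.86, SE 0.26), with the best ranked of all LPS-only sites 48.4 kb away, also within 50 kb of Akna and Whrn. In Cd86, a costimulatory ligand for T cells, the strong site was inside the gene, and RNA was 63.0 and 67.7 CPM with LPS and 24.9 in both LPS+LA libraries. In Pfkfb3, which makes the activator of phosphofructokinase, a strong LPS-only and a weaker LPS+LA-only site both lay inside the gene, and RNA was lower (log2 -1.77, SE 0.08).

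By rank, the best LPS-only sites after the one beside Col27a1 were at chr1:152526255-152526659 beside Rgl1 (scores 77.4, 78.9 and 66.4) and chr3:60471996-60472468 beside Mbnl1 (97.6, 72.0 and 50.8), without control or LA peaks. The best LPS+LA-only sites were at chr1:131521560-131521933 beside Srgap2 and Fam72a (83.8, 132 and 148), chr12:101979405-101979772 beside Atxn3 and Cpsf2 (81.4, 94.2 and 137) and chr11:95827942-95828404 beside Abi3 and 3 other genes (57.8, 91.3 and 98.8). All 3 of these had a peak in each LA sample and none in a control, while the LPS-only sites had a peak in neither group.

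Strong LPS+LA-only sites had neighbours that differed in both directions. Of the 246 genes within 50 kb of such a site, 39.8% were lower and 33.7% higher, against 29.7% and 29.3% over all 12165. Jun, the core AP-1 subunit, had one 42.3 kb away with peaks in all 3 control and all 3 LA samples, and an LPS-only site 48.5 kb away. Jun RNA was 129 and 131 CPM with LPS and 226 and 250 with LPS+LA (log2 0.87, SE 0.11). Dusp1, a phosphatase of MAP kinases, had 342 and 356 CPM with LPS and 664 and 773 with LPS+LA (log2 1.04, SE 0.08), with 2 sites of each kind within 50 kb. Pde4d, a phosphodiesterase of cyclic AMP, rose from 0.518 and 0.793 to 3.32 and 3.37 CPM (log2 2.34, SE 0.40), with a strong site inside the gene that also had peaks in all 3 LA samples. Trem2, a lipid receptor of macrophages, rose by a log2 of 0.53 (SE 0.06) beside a strong site with peaks in all 3 LA samples. Chosen after their values were seen, the lipid-sensing nuclear receptor Pparg (4 LPS+LA-only sites, log2 1.02, SE 0.17) and the transcription factor Irf4 (2 sites, log2 1.12, SE 0.30) were higher with LPS+LA, the latter not past the test without LPS replicate 2 (0.90, edgeR adjusted p = 0.0532). Atf3, a stress-induced repressor, and Isg20, an interferon-induced exonuclease, also chosen after their values were seen, had a strong LPS+LA-only site each and lower RNA (log2 -1.38, SE 0.11, and -2.83, SE 0.11). At this distance a site and a gene are neighbours only, and many sites have several.

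Gene groups were counted against the 27.3% of all tested genes that had an LPS-only or an LPS+LA-only site within 50 kb. Neighbouring members can share sites, so distinct sites are given. Among 15 chemokines, which draw leukocytes, 11 were within 50 kb of 15 distinct LPS-only sites and 8 of 5 LPS+LA-only sites, and RNA of all 15 was lower in LPS+LA (13 with total-count scaling). Ccl9 had 5 LPS-only sites, and Ccl3, Ccl4 and Ccl5 had 3 each, partly the same ones. The call of Ccl4 (log2 -1.40, SE 0.35) was lost when any 1 of the 4 libraries was left out. Among 19 inflammatory cytokines, 9 had an LPS-only and 8 an LPS+LA-only site, from 16 and 10 distinct sites, with 14 lower and 3 higher in RNA. Il6 had 2 LPS-only sites, of which chr5:30020388-30021082 lay 0.413 kb past the gene with scores of 14.1, 18.3 and 18.5 and no control or LA peak. Il6 RNA was 855 and 800 CPM with LPS and 9.63 and 8.32 with LPS+LA (log2 -6.53, SE 0.11, edgeR adjusted p = 2.4e-21). Il12b, Il1b and Ccl17 were also much lower in RNA (log2 -5.06, -2.92 and -8.55) but each had a single one-group site, and it was LPS+LA-only. Ccl17 had 35.5 and 28.9 CPM with LPS and 0.161 and 0 with LPS+LA, so its ratio rests on LPS+LA values near 0. Tnf had neither kind of site among its neighbours, 19 sites in all 6 samples, and RNA of 11340 and 10600 CPM with LPS against 1865 and 1391 with LPS+LA.

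Of 33 interferon response genes, all lower in RNA, 21 had an LPS-only and 17 an LPS+LA-only site, from 20 and 17 distinct sites. Ifih1, a sensor of viral RNA, had 2 LPS-only and 1 LPS+LA-only site and a log2 difference of -2.44 (SE 0.07), while Oasl1, an antiviral protein of the OAS family, had 1 and 3, all shared with its neighbour Oasl2, and a difference of -1.82 (SE 0.29). Of 20 genes of antigen presentation and costimulation, 8 had an LPS-only site and 1, Vcam1, an LPS+LA-only site, with 16 lower and none higher in RNA (13 and 5 with total-count scaling). Tap1 and Tap2, which carry peptides to MHC class I, shared 1 LPS-only site and had differences of -1.67 and -1.45 (SE 0.07 and 0.08). Of 30 genes of NF-kB signalling and feedback, 16 had an LPS-only and 12 an LPS+LA-only site, from 24 and 17 distinct sites, with 23 lower and 4 higher. Of 20 antimicrobial and prostanoid effectors, 8 and 10 had such sites, with 15 lower and 3 higher. Ptgs2, the inducible cyclooxygenase, had LPS-only sites 0.06 and 34.0 kb from its bounds and RNA of 2979 and 2947 CPM with LPS against 286 and 274 with LPS+LA. Nos2, the inducible nitric oxide synthase, had 1 LPS-only and 2 LPS+LA-only sites and a difference of -6.78 (SE 0.17).

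Of 20 Toll-like receptors and adaptors, 2 had an LPS-only and 7 an LPS+LA-only site, from 2 and 11 distinct sites, with 12 lower and 4 higher in RNA. Cd180, a Toll-related receptor that restrains LPS signalling, had 3 LPS+LA-only sites and lower RNA (log2 -1.01, SE 0.07), and Tlr5, the flagellin receptor, had 2 and higher RNA (2.09, SE 0.40). Of 18 cyclic AMP and CREB targets, 4 and 8 had such sites, from 5 and 12 distinct sites, with 10 higher and 5 lower. Nr4a1, an orphan nuclear receptor induced by cyclic AMP, had 1 LPS+LA-only site and rose from 1.94 and 1.59 to 78.2 and 87.9 CPM. Of 19 macrophage identity genes, 7 had an LPS-only and 9 an LPS+LA-only site, from 10 and 16 distinct sites, 5 of the latter at Mertk. In RNA 9 of the 19 were higher and 7 lower (11 and 6 with total-count scaling). Of 22 immediate early and AP-1 genes 8 and 10 had such sites, with 7 higher and 8 lower and a median log2 of -0.06 that was 0.34 with total-count scaling. Fosl2, an AP-1 subunit, had 1 LPS+LA-only site and rose by 2.44 (SE 0.11). Fosb, another, rose from 0 and 0.264 to 22.1 and 21.4 CPM beside 1 LPS-only site. Its log2 of 7.31 (SE 0.35) rests on LPS values near 0. Of 14 heat shock chaperones, 7 were higher and 3 lower in RNA (12 and 2 with total-count scaling). None had an LPS+LA-only site and 6 had an LPS-only site, from 5 distinct sites. Hspa1a, an inducible HSP70, was among these and rose from 45.2 and 43.2 to 560 and 569 CPM, and its reads cannot be surely told from those of its near-identical neighbour Hspa1b. Of 25 cell cycle genes 3 and 5 had such sites, with 18 higher and 3 lower in RNA (22 and 2 with total-count scaling). Of 28 genes of glycolysis and hypoxia 13 and 8 did, with 11 higher and 10 lower (18 and 4). Of 19 receptors for lipid mediators, nucleotides and protons 11 and 6 did, with 8 higher and 8 lower (9 and 6).

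Chromatin at gene starts was read in 32851 windows of 300 bases, from 250 before to 50 after an annotated start (RefSeq, GRCm38.p6, the assembly that mm10 names). A window was assigned by the peaks that overlapped it. Peaks were there in all 6 samples for 12652 windows and in none for 18517, while 70 (0.213%) had them in LPS only and 62 (0.189%) in LPS+LA only. These labels are of windows, and such a window can lie in a merged site with peaks in both groups. The window of Icam5, named after its values were seen, was LPS-only, with no one-group site within 50 kb of the gene. Of the 9797 RNA-tested genes with a window, 88.8% had one with peaks in all 6 samples. This share was 92.9% for the 2931 genes called lower, 92.5% for the 2902 called higher and 82.9% for genes not called. It was 72.9% for the 351 genes lower by a log2 of 2 or more and 81.8% for the 379 higher by as much. Windows of Il6, Tnf, Ptgs2, Cxcl10, Acod1, Edn1, Fosb, Nr4a1 and Vegfa had peaks in all 6 samples. Windows of Il12b, Csf2, Ccl17 and Saa3 had no peak in any of the 6 samples although all 4 were lower in RNA. Of genes with an LPS-only window 17 were tested in RNA, 7 lower and 3 higher, and of those with an LPS+LA-only window 16 were tested, 2 lower and 7 higher, where 29.7% of all tested genes were lower and 29.2% higher. The 2 lower ones, named after their values were seen, were the eosinophil chemokine receptor Ccr3 and the adaptor Sh3bp2.

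The start windows of 6 genes, chosen after their values were seen, are shown because peak and RNA could be read together, with that of Il6 for contrast. They were taken among windows of 1 state whose genes were called in RNA with a log2 difference of 1 or more. At most 4 windows were taken per direction. Icam5 (LPS-only, log2 -1.58) and Prr15 (LPS+LA-only, log2 2.01, with peaks in all 3 controls) also met this rule, hold no match to the motifs and are not printed. Ccl8 and Slfn1 hold no match either and are printed. Sh3bp2 (LPS+LA-only) met the rule too, with lower RNA in LPS+LA (log2 -1.003), and is not printed. Each printed sequence is the 250 bases before the start, on the plus strand, with matches to any of 10 searched motifs in capitals. Ccl8, a monocyte chemokine (chr11:82114935-82115184), Fpr2, a receptor for formyl peptides (chr17:17887574-17887823), and Slfn1, a Schlafen family gene (chr11:83116570-83116819), had LPS-only windows. St6gal1, which adds sialic acid to glycans (chr16:23290220-23290469), Ccr3 (chr9:124021721-124021970) and Hmga1b, a near copy of the architectural protein gene Hmga1 whose reads may be split with it (chr11:120762544-120762793), had LPS+LA-only windows. Il6 (chr5:30012864-30013113) had a peak in all 12 samples.
Ccl8: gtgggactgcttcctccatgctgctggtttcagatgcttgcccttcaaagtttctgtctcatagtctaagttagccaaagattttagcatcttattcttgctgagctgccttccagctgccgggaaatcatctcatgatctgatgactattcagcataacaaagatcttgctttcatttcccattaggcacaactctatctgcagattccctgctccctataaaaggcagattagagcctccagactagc
Fpr2: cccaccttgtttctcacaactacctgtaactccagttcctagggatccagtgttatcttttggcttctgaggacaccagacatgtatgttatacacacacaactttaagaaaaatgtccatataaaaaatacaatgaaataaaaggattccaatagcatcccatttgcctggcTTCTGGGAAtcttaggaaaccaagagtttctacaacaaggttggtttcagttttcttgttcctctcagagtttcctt
Slfn1: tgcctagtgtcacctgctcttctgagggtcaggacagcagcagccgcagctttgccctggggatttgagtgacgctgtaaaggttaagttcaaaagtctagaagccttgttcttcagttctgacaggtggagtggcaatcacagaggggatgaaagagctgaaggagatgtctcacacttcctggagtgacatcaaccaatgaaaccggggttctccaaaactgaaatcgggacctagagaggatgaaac
St6gal1: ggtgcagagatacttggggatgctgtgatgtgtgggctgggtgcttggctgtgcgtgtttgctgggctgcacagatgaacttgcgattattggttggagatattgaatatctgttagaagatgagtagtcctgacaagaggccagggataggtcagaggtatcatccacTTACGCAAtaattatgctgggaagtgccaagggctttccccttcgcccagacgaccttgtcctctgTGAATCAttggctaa
Ccr3: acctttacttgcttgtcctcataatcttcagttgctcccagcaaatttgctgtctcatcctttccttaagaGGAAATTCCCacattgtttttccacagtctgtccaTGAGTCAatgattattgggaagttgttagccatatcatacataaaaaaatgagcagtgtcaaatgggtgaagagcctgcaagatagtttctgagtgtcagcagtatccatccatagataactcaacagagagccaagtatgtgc
Hmga1b: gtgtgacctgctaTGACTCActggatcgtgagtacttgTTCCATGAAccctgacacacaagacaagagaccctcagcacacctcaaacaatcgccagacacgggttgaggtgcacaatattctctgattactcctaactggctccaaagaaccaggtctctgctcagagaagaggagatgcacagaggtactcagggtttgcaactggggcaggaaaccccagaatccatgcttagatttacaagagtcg
Il6: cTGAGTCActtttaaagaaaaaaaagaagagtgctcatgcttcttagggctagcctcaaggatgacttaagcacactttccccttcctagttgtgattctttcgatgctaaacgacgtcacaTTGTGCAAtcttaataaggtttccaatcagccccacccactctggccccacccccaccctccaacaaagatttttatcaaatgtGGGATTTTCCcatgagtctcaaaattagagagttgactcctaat

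The peak over the Ccl8 window had scores of 4.92, 14.3 and 6.76 in the LPS samples, and RNA was 3.37 and 4.03 CPM with LPS and without a count in both LPS+LA libraries, at least 23.2-fold lower against 3 counts per library. At Fpr2 the scores were 32.5, 32.3 and 28.3 with LPS and 14.4 and 12.3 in 2 control samples, with no peak over the window in the other 7. Fpr2 RNA was 41.1 and 41.2 CPM with LPS and 1.66 and 2.53 with LPS+LA (log2 -4.29, SE 0.21), and its neighbour Fpr1 fell likewise (-5.30, SE 0.28). Slfn1 RNA was 14.3 and 15.4 CPM with LPS and 1.55 and 2.11 with LPS+LA. In these 3 genes the peak and the RNA were both present with LPS and low or absent with LPS+LA, which follows in part from how they were chosen. In controls Fpr2 RNA was at most 0.283 CPM, although 2 control ATAC samples had a peak over the window. Of all tested genes with an LPS-only window, 7 were lower in LPS+LA and 3 (Tal1, Dyrk1a and Clic1) were higher. The St6gal1 window had scores of 12.1, 15.7 and 21.6 with LPS+LA only, and RNA of 35.7 and 34.8 CPM with LPS, 70.0 and 77.4 with LPS+LA and 121 and 118 in controls, which had no peak there. This window is an alternative start inside the gene, and another start window of St6gal1 had peaks in every sample of the 4 groups. Ccr3 had scores of 4.82, 14.9 and 13.6 with LPS+LA and lower RNA there, 5.46 and 4.16 CPM against 13.7 and 14.7. Hmga1b was higher with LPS+LA, 15.5 and 12.96 CPM against 3.11 and 3.63. At Il6 the scores were 267, 183 and 184 with LPS and 163, 263 and 236 with LPS+LA. Scores come from separate lists and do not measure a difference in accessibility between samples.

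In these letters, the capitals of Ccr3, St6gal1, Hmga1b and Il6 include the AP-1 motif TGANTCA, those of St6gal1 and Il6 the C/EBP motif TTGCNNAA or its reverse complement, those of Ccr3 and Il6 an NF-kB motif, and those of Fpr2 and Hmga1b the STAT motif TTCNNNGAA. Ccl8 and Slfn1 matched none of the 10. Also searched, all on both strands, were the cyclic AMP response element TGACGTCA, GAGGAAGT for PU.1, AAAGGTCA for NR4A and the E-box CACGTG. The interferon-stimulated response element, the NF-kB site (5 forms) and the heat shock element are given by name. Overlapping matches of different motifs were each counted.

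Counted over windows that do not overlap each other, with intervals that cover counting error only, AP-1 matches were in 18 of 52 LPS+LA-only windows (34.6%, 95% Wilson interval 23.2 to 48.2) and in 5 of 63 LPS-only windows (7.94%, 3.44 to 17.3), where 8.13% of all 29164 windows had one. STAT matches were in 11 of the 52 (21.2%, 12.2 to 34.0) and 4 of the 63 (6.35%, 2.50 to 15.2), against 8.43% of all. LPS-only windows held the interferon element in 7 of 63 (11.1%, 5.49 to 21.2) and the C/EBP motif in 11 (17.5%, 10.0 to 28.6). All windows gave 3.48% and 11.0%, the latter inside the C/EBP interval, and LPS+LA-only windows 5.77% and 7.69%. NF-kB forms were in none of the 63 and 1 of the 52, with 0.480% of all, and the cyclic AMP element in 1 and none, with 1.64% of all. A match is a run of letters and says nothing on whether a factor was bound. Of the 18 LPS+LA-only windows with an AP-1 match, 13 had no control peak, 7 no LA peak and 3 a peak in all 3 LA samples. Of the 34 without a match, 16 had no control peak, 11 no LA peak and 11 a peak in all 3 LA samples. For 5 more of the 18, picked after the values were seen, the 30 bases about the match are given. They are read along the strand of the gene with the match in capitals. Junos at chr4:95094776-95094805 lies in the strong LPS+LA-only site beside Jun. Gm30224 at chr16:92596269-92596298 lies in an LPS+LA-only site, not a strong one, beside Runx1, a macrophage and blood transcription factor that was higher with LPS+LA (log2 1.03, SE 0.08). Runx1 had 2 LPS-only and 3 LPS+LA-only sites within 50 kb. Dclk1, a kinase gene (chr3:55461657-55461686), Msh4, a meiosis gene (chr3:153905075-153905104), and Mirc35hg, a microRNA host gene (chr6:30174229-30174258), are the others. Dclk1 had 0 CPM in every LPS and LPS+LA library, and Msh4 and Mirc35hg were not tested in RNA.
Junos: cacaccctttgtTGACTCAccctccacccc
Gm30224: aatgtctttttaTGATTCAaccccctgtga
Dclk1: ttgattcttgtgTGAGTCActgagttgcca
Msh4: ccaactaaggtcTGAGTCAggcttggtggg
Mirc35hg: caacattcaaggTGAATCAtcttcggtccg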

How the data were processed

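ATAC-seq peak lists of 12 samples and RNA counts of 10 libraries from mouse bone marrow-derived macrophages were used. Each peak's score is the authors' own deposited value, and is used only to rank or filter peaks within a list. Where scores of several samples are printed, they are not compared between samples. Reads were aligned to mm10 with tools that include BWA 0.5.9, Picard and MACS2 2.0.10, per the submitters' processing notes. Peaks were called per sample, as the file headers show, and no source used here gives a shift of the reads for the enzyme. The number of reads behind a list is unknown. The RNA values are expected counts deposited by the authors, with HISAT and Bowtie2 and GRCm38.p6 named in the submitters' processing notes. They were rounded to whole numbers (6.07% were not whole), with totals of 18668666 to 20219895 per library. Of 16059 genes, 12213 passed the filter on low counts (filterByExpr, minimum count 10, minimum total 15) and entered edgeR's quasi-likelihood test (edgeR 4.0.16, R 4.3.3) with TMM factors, all 10 libraries in the fit, Benjamini-Hochberg adjustment and a threshold of 0.05. CPM values are per library and are not compared between genes.

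Peaks of the 12 samples overlapping by 1 bp or more were merged into sites. Numbers of peaks were compared by a two-sided exact permutation test over samples (Python 3.11.15, scipy 1.17.1). Sites were tied to genes within 50 kb of the gene bounds, which says nothing of regulation. Genes named are fixed panel genes, per direction the 5 tested genes with the most one-group sites, up to 4 members of each list with the most such sites, and per direction the 5 with the largest RNA fold change and at least 10 CPM. Others, Fpr1 and Tlr4 among them, were chosen after their values were seen, which is not always said beside them. Members and lists were chosen with earlier results of these data known. No genome was used, so in place of sequence about site midpoints, sequence at gene starts is printed, from RefSeq (GRCm38.p6). Alternatives covered the peaks kept, overlap, distance, scaling, the tool, the filter, the replicate block and leaving out each sample.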

Additional observations from a re-analysis of the deposited data

How the results depend on the processing

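With peaks at or above the median score of the 6 samples, LPS+LA had a mean of -344.667 peaks relative to LPS, and without 1 sample the difference ran from -2732.17 to 4796.83, all inside the spread. Peaks at or above the median score of their own sample gave 1800 LPS-only and 1877 LPS+LA-only sites, and the strong-site rule, added after the data were seen, 96 and 144. Leaving out 1 sample gave 3103 to 5030 LPS-only sites (highest without LPS replicate 3) and 3168 to 5492 LPS+LA-only sites (highest without LPS+LA replicate 1), since fewer samples must have a peak or lack one. Equal lists of 50000 peaks gave 2305 and 2321. In these lists 64.3% of LPS-only sites had no control peak and 32.0% of LPS+LA-only sites no LA peak, against 71.0% and 51.3% with all peaks. RNA with total-count scaling gave 6208 genes higher and 2032 lower, and leaving out 1 library gave 2925 to 3226 and 3110 to 3342.

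Genes beside LPS-only sites were higher and lower in 24.0% and 43.4% within 10 kb, and in 46.3% and 24.5% with total-count scaling. Beside LPS+LA-only sites these were 29.2% and 37.9%, and 53.1% and 19.1%. Within 100 kb the shares lower were 35.0% and 30.7%, and with the top 50000 peaks the shares higher were 24.8% and 33.9%. Beside strong sites, higher and lower were 17.8% and 55.8% for LPS-only and 33.7% and 39.8% for LPS+LA-only. Why these shares differ was not tested. Total-count scaling turned the log2 difference of Tlr4 (0.11), Hivep3 (0.22), Ptafr (0.19), Slc16a3 (0.14) and Hsp90ab1 (0.24) from lower to higher, as it raises all genes by 0.40.

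Replicate numbers are shared by the groups, but same-numbered ATAC samples did not deviate together (correlations -0.0622, 0.00766 and -0.0381), nor did the 2 RNA pairs (0.0417). With the replicate block the peak difference was 178.667 (exact sign-flip p = 1, n = 3), and edgeR called 3532 genes higher and 3609 lower. Of the named genes, Ifnb1 lost its call under it (log2 1.41, edgeR adjusted p = 0.0521, against 1.40 and 0.0219 without it), as it did when any 1 library was left out (adjusted p 0.0695 to 0.149) and with DESeq2 (0.279). Read depth behind the peaks is unknown and limits what a missing peak shows.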
